A study of Mus musculus with 12 samples.

Results

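Kcne2, Kcnj13, Slc4a5, Slc4a2, Aqp1, Clic6, Trpv4, Slc12a2 and Atp1b1 are 9 genes for the ion channels, exchangers, cotransporter, water channel and pump subunit that are known from the choroid plexus epithelium. They were picked by symbol from a table of 27833 genes in the hippocampus of aged mice, and their levels were followed over all 12 libraries. Each of the 9 had a mean FPKM of at least 0.5, the minimum for entering the fit of 13796 genes. Kcne2, Kcnj13, Slc4a5 and Aqp1 reached this mean through the control group, since their mean FPKM was below 0.5 in both treated groups. Trpv4 did so too, since its mean over all treated libraries was 0.488 FPKM. The genes were chosen with the differences between these same groups known, so their levels and their differences are given as a description and carry no test.

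The mice were wild-type C57BL/6J males aged 20 months, and every group had the same age and sex, with no young group for reference. By oral gavage over 14 days, the CON group (3 libraries) received 0.2 mL of normal saline a day, while the PQQ-L group (5 libraries) received pyrroloquinoline quinone (PQQ), a redox cofactor, at 5 mg/kg/day and the PQQ-H group (4 libraries) at 10 mg/kg/day in the same volume. The design assigned 6 mice to each group, and the labels do not state that each library came from a separate mouse, so errors measure the spread between libraries. RNA from whole hippocampus was sequenced to between 29654553 and 38179496 reads on genes per library. Levels are given as FPKM, fragments scaled to the length of the gene and to the reads of the library. This puts genes and libraries on one scale, but does not correct for differences in RNA composition between libraries.

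The choroid plexus is a secretory epithelium in the brain ventricles that makes cerebrospinal fluid from plasma. Its cells move sodium, chloride and bicarbonate from the blood side to the ventricle side, potassium channels recycle the potassium that the pump and the cotransporter handle, and water follows through aquaporin-1. The choroid plexus of the lateral ventricle lies next to the hippocampus, and several of these proteins also occur in neurons, glia or vessels.

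In the 3 CON libraries, 7 of the 9 genes were higher than in any of the 9 PQQ-treated libraries, namely Kcne2, Kcnj13, Slc4a5, Slc4a2, Aqp1, Clic6 and Trpv4. The mean level in CON was between 2.52-fold (Slc4a2) and 111.7-fold (Kcne2) that in PQQ-L. The value of Kcne2 rests on single libraries, since it was 73.8-fold without CON 3, and without PQQ-L 3, where no library of that dose had more than 3 reads, PQQ-L was at least 217.2-fold lower than CON. Slc12a2 was lower in every PQQ-H library than in CON but overlapped with CON in PQQ-L, and Atp1b1 overlapped with CON at both doses. Over all genes tested, 7.66% were lower in every PQQ-L library than in CON and 5.72% in every PQQ-H library. In bulk tissue, fewer cells of a type and less RNA per cell cannot be told apart. The plot of FPKM by library shows these levels for all 9 genes.

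**Figure D1:**
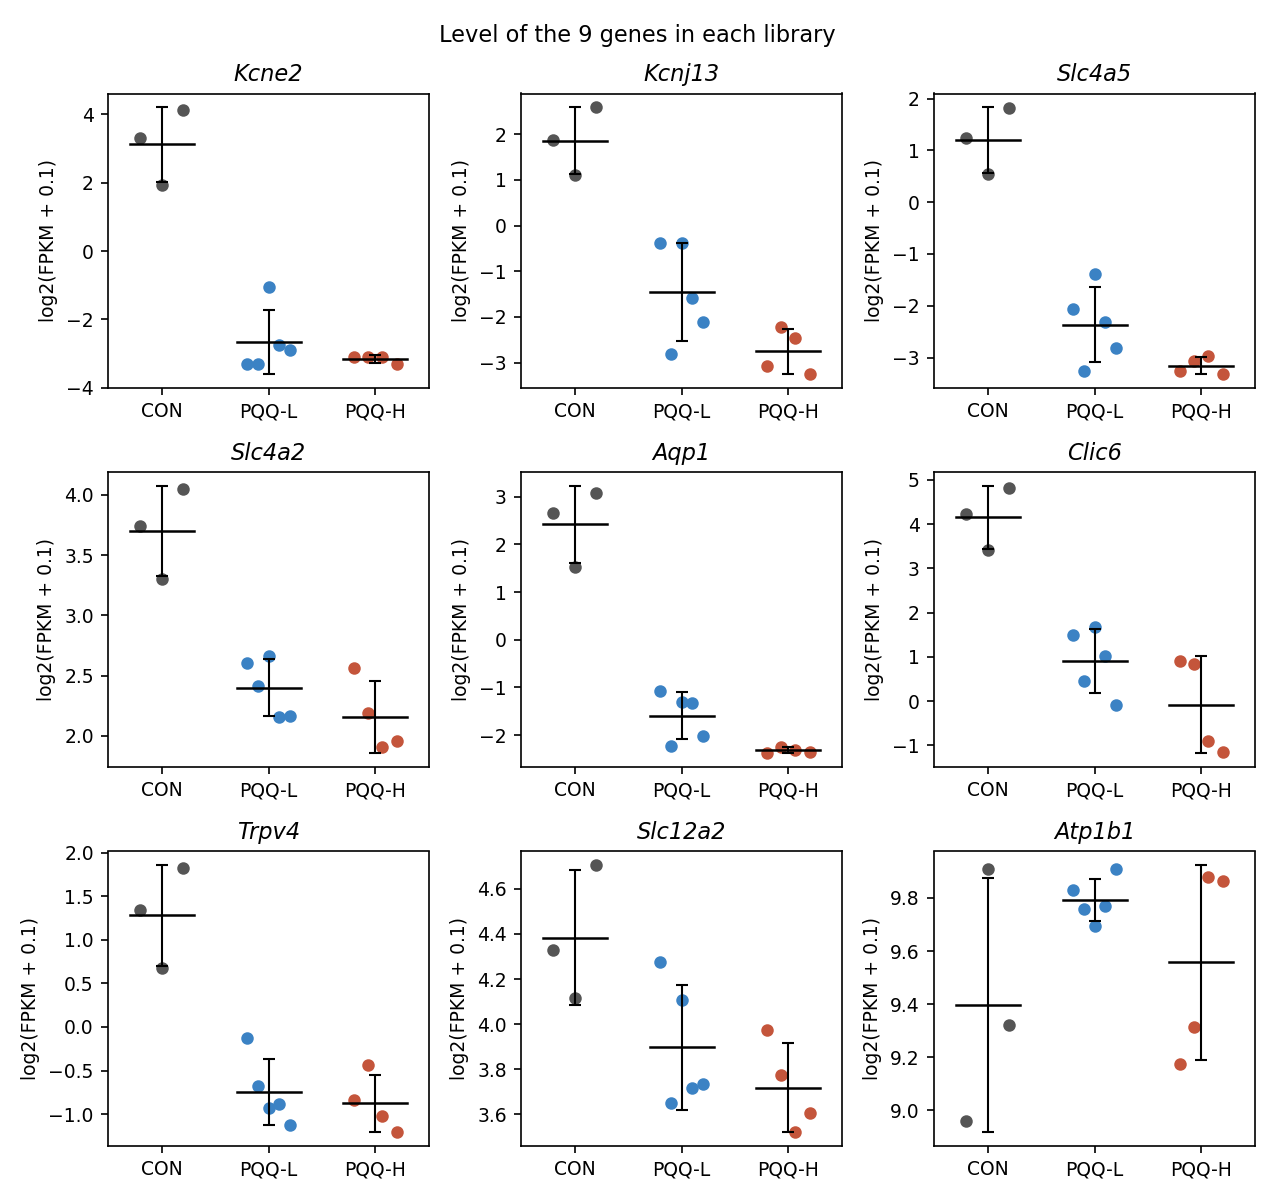
Level of each of the 9 genes on the log2(FPKM + 0.1) scale (y axis, a different range in each panel) in the libraries of each group (x axis), with 1 point per library, a line at the mean and bars of 1 SD. In 7 panels all CON points lie above all PQQ points, in the Slc12a2 panel CON overlaps with PQQ-L, and in the Atp1b1 panel all groups overlap.

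Among the potassium channels, Kcne2 encodes a small beta subunit that sits beside voltage-gated potassium channels and alters their gating. In CON 1, CON 2 and CON 3, Kcne2 stood at 9.82, 3.75 and 17.2 FPKM, from 618, 197 and 1023 reads. In PQQ-L 1 to PQQ-L 5 it stood at 0, 0, 0.379, 0.0482 and 0.0331 FPKM, from 0, 0, 24, 3 and 2 reads. In PQQ-H 1 to PQQ-H 4 it stood at 0.0161, 0.0174, 0.0160 and 0 FPKM, from 1, 1, 1 and 0 reads. The lowest CON library was thus well above the highest PQQ library, PQQ-L 3, and that library alone held most of the Kcne2 reads of its group. The log2FC on the log2(FPKM + 0.1) scale was -5.80 (SE 0.556) in PQQ-L vs. CON. Since no PQQ-H library had more than 3 reads, only a bound is given for that dose, and with 3 reads set as the floor of each library the mean level of Kcne2 in PQQ-H was at least 207.5-fold lower than in CON (at least 137.1-fold without CON 3). Kcne2 was the fifth of the 9 genes by mean FPKM in CON and the last in both PQQ-treated groups.

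Kcnj13 encodes the inward rectifier Kir7.1, a potassium channel of the apical membrane in choroid plexus and retinal pigment epithelium. Its level was 3.59, 2.06 and 5.91 FPKM in CON 1 to CON 3. It was 0.665, 0.0421, 0.669, 0.233 and 0.132 FPKM in PQQ-L 1 to PQQ-L 5, where the reads ranged from 10 to 149. It was 0.0183, 0.114, 0.0821 and 0.00470 FPKM in PQQ-H 1 to PQQ-H 4, from 4, 23, 18 and 1 reads. PQQ-L 1 and PQQ-L 3 were the highest PQQ libraries and still lay below CON 2. On the log2(FPKM + 0.1) scale, the log2FC was -3.32 (SE 0.569) in PQQ-L and -4.61 (SE 0.595) in PQQ-H, and the CON mean was 11.1-fold and 70.3-fold the respective PQQ mean (110-fold without PQQ-H 2). On the RefSeq annotation Kcnj13 overlaps with Gigyf2, whose mean FPKM in CON, PQQ-L and PQQ-H was 8.06, 9.75 and 8.61. The strandedness of the libraries is not given in the sources used here, so reads of these overlapping genes may not have been told apart.

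To show what lies in front of the potassium channel genes, the promoters of Kcne2 and Kcnj13 are printed as RefSeq has them on GRCm38.p6, from 250 bases before to 50 bases after the annotated start, on the gene's own strand. The Kcne2 window is chr16:92292139-92292438 on the plus strand and the Kcnj13 window is chr1:87394680-87394979 on the minus strand. Capitals mark the motifs found.
Kcne2: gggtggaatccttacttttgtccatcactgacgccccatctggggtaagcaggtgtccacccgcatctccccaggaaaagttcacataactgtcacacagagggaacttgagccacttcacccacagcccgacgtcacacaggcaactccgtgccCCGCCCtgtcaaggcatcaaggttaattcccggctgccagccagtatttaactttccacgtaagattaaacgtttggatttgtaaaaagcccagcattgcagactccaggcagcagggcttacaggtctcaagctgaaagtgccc
Kcnj13: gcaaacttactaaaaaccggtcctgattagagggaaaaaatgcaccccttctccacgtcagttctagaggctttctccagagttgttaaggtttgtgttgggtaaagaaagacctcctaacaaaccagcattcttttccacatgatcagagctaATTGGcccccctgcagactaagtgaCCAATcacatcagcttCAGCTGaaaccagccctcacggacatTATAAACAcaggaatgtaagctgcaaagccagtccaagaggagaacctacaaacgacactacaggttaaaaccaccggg
The Kcne2 window held 9 CpG and 1 GC box (GGGCGG, on the reverse strand). The Kcnj13 window held 5 CpG, a TATA box (TATAAA) whose first base is at position -29 from the start, a forkhead core (TGTTTA, reverse strand) that overlaps with it, a CCAAT box on each strand and an E-box (CAGCTG). A second annotated start of Kcne2, with its window at chr16:92295366-92295665, had 1 CpG and none of the 6 motifs searched.

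Bicarbonate is moved by Slc4a5, an electrogenic sodium bicarbonate cotransporter (NBCe2) of the apical membrane, and by Slc4a2, the basolateral chloride/bicarbonate exchanger AE2. Slc4a5 stood at 2.27, 1.35 and 3.42 FPKM in CON 1 to CON 3. It stood at 0.139, 0.00424, 0.285, 0.101 and 0.0427 FPKM in PQQ-L 1 to PQQ-L 5, and at 0.00460, 0.02, 0.0276 and 0 FPKM in PQQ-H 1 to PQQ-H 4. Reads ranged between 248 and 707 in CON, between 1 and 63 in PQQ-L and between 0 and 6 in PQQ-H. The CON libraries were all above the PQQ libraries, and PQQ-L 2 was as low as the PQQ-H libraries. The log2FC of Slc4a5 was -3.56 (SE 0.425) in PQQ-L and -4.35 (SE 0.445) in PQQ-H on the log2(FPKM + 0.1) scale. All PQQ-H values lay below the added 0.1, so the size of the log2FC at that dose depends largely on this constant. It was larger at a pseudocount of 0.01 and smaller at 1. The CON mean of Slc4a5 was 20.51-fold the PQQ-L mean. It was 180.1-fold the PQQ-H mean (135.1-fold without PQQ-H 4 and 286.5-fold without PQQ-H 3). Slc4a2 was present in every library, at 13.3, 9.77 and 16.5 FPKM in CON 1 to CON 3. It was at 5.98, 5.22, 6.23, 4.35 and 4.38 FPKM in PQQ-L 1 to PQQ-L 5 and at 5.81, 4.47, 3.64 and 3.79 FPKM in PQQ-H 1 to PQQ-H 4. CON did not overlap with either dose, the doses overlapped with each other, and the difference from CON was the smallest of the 7, with a log2FC of -1.30 (SE 0.199) in PQQ-L and -1.54 (SE 0.208) in PQQ-H. Between 675 and 1174 reads of Slc4a2 were counted in each PQQ library.

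Aqp1, the water channel aquaporin-1 of the apical membrane, was at 6.22, 2.77 and 8.33 FPKM in CON 1 to CON 3. It was at 0.373, 0.114, 0.304, 0.299 and 0.149 FPKM in PQQ-L 1 to PQQ-L 5, from 12 to 37 reads. In PQQ-H 1 to PQQ-H 4 it was at 0.0927, 0.112, 0.103 and 0.0954 FPKM, from 9 or 10 reads each. All CON libraries were above all PQQ libraries. Every PQQ-H library was also below every PQQ-L library, though only by 10 reads in PQQ-H 2 against 12 in PQQ-L 2. The PQQ-H values were the most alike of any group, with a mean of 0.101 ± 0.00857 FPKM (SD, n = 4), against 5.78 ± 2.81 in CON (SD, n = 3) and 0.247 ± 0.111 in PQQ-L (SD, n = 5). The log2FC was -4.01 (SE 0.357) in PQQ-L and -4.74 (SE 0.374) in PQQ-H.

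The promoters of Slc4a5 (chr6:83237125-83237424, plus strand) and Aqp1 (chr6:55336049-55336348, plus strand) are given from the same source and build, so that they can be read against those of the potassium channels, whose levels had a similar pattern.
Slc4a5: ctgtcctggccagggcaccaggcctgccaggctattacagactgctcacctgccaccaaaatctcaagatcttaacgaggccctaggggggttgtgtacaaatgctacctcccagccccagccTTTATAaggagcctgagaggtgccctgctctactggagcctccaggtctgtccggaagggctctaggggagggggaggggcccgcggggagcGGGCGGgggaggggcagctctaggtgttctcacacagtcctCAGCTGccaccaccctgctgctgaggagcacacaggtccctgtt
Aqp1: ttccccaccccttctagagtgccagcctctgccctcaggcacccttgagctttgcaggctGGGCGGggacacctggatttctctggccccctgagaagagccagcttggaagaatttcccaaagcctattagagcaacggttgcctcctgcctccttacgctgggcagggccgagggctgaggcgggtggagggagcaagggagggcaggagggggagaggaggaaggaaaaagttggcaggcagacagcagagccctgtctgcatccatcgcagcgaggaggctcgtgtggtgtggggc
The Slc4a5 window held 6 CpG, a TATAAA match on the reverse strand with its first base at position -127, a GC box and an E-box. The Aqp1 window held 8 CpG and 1 GC box at position -190.

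Clic6, of the chloride intracellular channel family, and Trpv4, a calcium-permeable channel that responds to cell swelling, had intermediate differences. Clic6 was at 18.7, 10.5 and 28.2 FPKM in CON 1 to CON 3. It was at 2.73, 1.27, 3.07, 1.92 and 0.845 FPKM in PQQ-L 1 to PQQ-L 5 and at 1.78, 1.67, 0.432 and 0.352 FPKM in PQQ-H 1 to PQQ-H 4. The CON libraries lay above the others, and within PQQ-H the libraries fell into a higher pair (PQQ-H 1 and PQQ-H 2) and a lower pair (PQQ-H 3 and PQQ-H 4). The log2FC of Clic6 was -3.24 (SE 0.565) in PQQ-L and -4.23 (SE 0.591) in PQQ-H. Trpv4 was at 2.43, 1.49 and 3.45 FPKM in CON 1 to CON 3. It was at 0.815, 0.525, 0.426, 0.442 and 0.359 FPKM in PQQ-L 1 to PQQ-L 5 and at 0.460, 0.637, 0.391 and 0.333 FPKM in PQQ-H 1 to PQQ-H 4. Again no PQQ library reached the lowest CON library, and the doses overlapped. The log2FC of Trpv4 was -2.03 (SE 0.296) in PQQ-L and -2.16 (SE 0.309) in PQQ-H.

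Slc12a2 encodes NKCC1, the sodium, potassium and chloride cotransporter of the apical membrane, which neurons and glia also use. It was at 20.0, 17.3 and 26.0 FPKM in CON 1 to CON 3. It was at 19.3, 12.5, 17.1, 13.0 and 13.2 FPKM in PQQ-L 1 to PQQ-L 5 and at 15.6, 13.6, 11.4 and 12.1 FPKM in PQQ-H 1 to PQQ-H 4. PQQ-L 1 lay above CON 2, while every PQQ-H library lay below every CON library. The log2FC was -0.49 (SE 0.175) in PQQ-L and -0.66 (SE 0.183) in PQQ-H, short of the fold threshold of 1 on the log2 scale.

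Atp1b1, the beta-1 subunit of the Na+/K+-ATPase, was by far the most abundant of the 9. It was at 498, 960 and 640 FPKM in CON 1 to CON 3. It was at 909, 867, 829, 872 and 961 FPKM in PQQ-L 1 to PQQ-L 5 and at 577, 636, 942 and 931 FPKM in PQQ-H 1 to PQQ-H 4. The groups overlapped, and the low values came from CON 1, CON 3, PQQ-H 1 and PQQ-H 2. The log2FC was 0.40 (SE 0.212) in PQQ-L and 0.16 (SE 0.221) in PQQ-H, where leaving out CON 1 gave -0.06. Atp1b1 overlaps with Nme7 on the annotation, whose mean FPKM was between 4.61 and 5.66 in the groups. Its promoter (chr1:164458306-164458605, minus strand, GRCm38.p6, RefSeq) is printed as the contrast to the others, with CCAAT and GC boxes in capitals.
Atp1b1: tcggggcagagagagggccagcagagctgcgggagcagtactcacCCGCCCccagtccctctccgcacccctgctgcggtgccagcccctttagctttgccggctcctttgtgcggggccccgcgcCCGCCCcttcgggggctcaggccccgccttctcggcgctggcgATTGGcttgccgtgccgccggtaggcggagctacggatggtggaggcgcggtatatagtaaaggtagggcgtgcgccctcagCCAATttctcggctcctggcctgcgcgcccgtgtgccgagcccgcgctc
This window held 31 CpG, more than 89.4% of all promoters of the same length, against 9, 5, 6 and 8 in the windows of Kcne2, Kcnj13, Slc4a5 and Aqp1.

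Over the 7 genes with a promoter in the table used (9 windows of 300 bases), GC boxes (GGGCGG, either strand) were found for 5 genes and E-boxes (CAGCTG) for 3. TATAAA matches at any position were found for 2, CCAAT for 2 and the forkhead core (TGTTTA) for 1. Of 32851 promoters, 35.7% held a GC box, 16.3% this E-box, 13.6% TATAAA, 37.4% CCAAT and 13.4% the forkhead core. TAATCC, the core bound by OTX homeodomain factors, was in none of the 9 windows and in 7.06% of all promoters. All motifs were searched on both strands, and a match or its absence is a description of these letters only. The windows of Trpv4 and Slc4a2 resembled that of Atp1b1 in CpG number (30 in Trpv4 and 37 and 16 at the starts of Slc4a2), while the median over all promoters was 7. The authors' files were made on mm39, so the coordinates given here are of another build.

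Of the 9 genes, 7 passed both thresholds (|log2FC| above 1 and a limma adjusted p below 0.05) in PQQ-L vs. CON, where 0.471% of all genes tested passed and were lower. The same 7 passed in PQQ-H vs. CON, where 0.819% of all genes passed and were lower. These counts describe the choice of genes, and both comparisons use the same 3 CON libraries. The median log2FC of the 9 was -3.24 for PQQ-L and -4.23 for PQQ-H, while the median over all genes tested was -0.03 in both. In PQQ-L vs. CON the number that passed was 3 without CON 1 and 3 without CON 3, where Kcnj13, Slc4a2, Clic6 and Trpv4 no longer passed. The plot of differences from CON orders the genes by role.

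**Figure D2:**
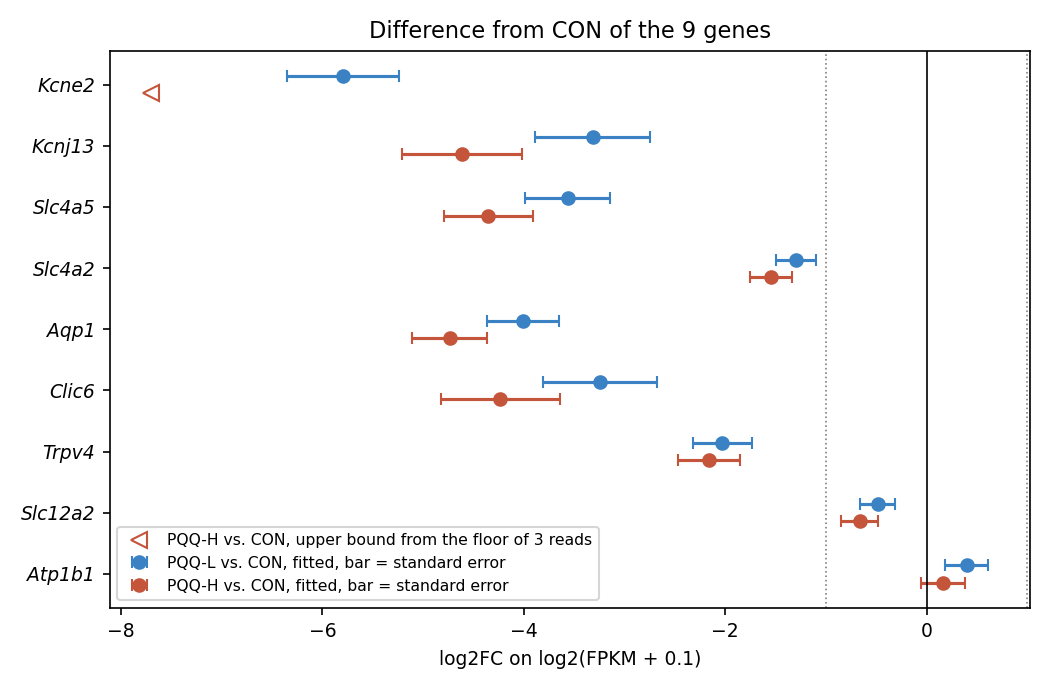
Difference from CON of each of the 9 genes (y axis) as log2FC on the log2(FPKM + 0.1) scale (x axis), for PQQ-L (blue) and PQQ-H (red), with bars of 1 standard error and dotted lines at the fold threshold. The open triangle is the upper bound of the Kcne2 difference in PQQ-H. It is set from the floor of 3 reads without the 0.1, so it is not on the scale of the fitted points. Those run up to Atp1b1, whose log2FC was 0.40 and 0.16.

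Between the doses, limma called 0 of 13796 genes past both thresholds and voom on recovered reads also 0, and 8.15% had an unadjusted p below 0.05. All 9 genes had a fitted log2FC (PQQ-H minus PQQ-L) below 0, with a median of -0.48, against -0.02 over all genes tested. With Kcne2 at its bound, which is set from reads without the 0.1 and so on another scale, the median was -0.73. The median of -0.48 is the fitted value of Kcne2 and was -0.26 without PQQ-L 3. The larger values were -1.30 (SE 0.523) for Kcnj13, -0.99 (SE 0.519) for Clic6 (-0.63 without PQQ-H 4), -0.79 (SE 0.391) for Slc4a5 and -0.73 (SE 0.328) for Aqp1. Aqp1 was the one gene of the 9 whose doses did not overlap, and 3.33% of all genes were lower in every PQQ-H library than in PQQ-L. The nearest Aqp1 libraries were PQQ-L 2 with 12 reads and PQQ-H 2 with 10, a gap too small to separate the doses. Within the PQQ-treated libraries, PQQ-L 3 was the highest for Kcne2, Kcnj13, Slc4a5, Slc4a2 and Clic6, and PQQ-L 1 for Aqp1, Trpv4 and Slc12a2. PQQ-H 4 was the lowest for Kcnj13, Slc4a5, Clic6 and Trpv4.

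The order of mean levels also differed by group. In CON it ran from Atp1b1 through Slc12a2, Clic6, Slc4a2, Kcne2, Aqp1, Kcnj13 and Trpv4 to Slc4a5, and apart from Atp1b1 each gene overlapped with the next in the order. In PQQ-L the order was Atp1b1, Slc12a2, Slc4a2, Clic6, Trpv4, Kcnj13, Aqp1, Slc4a5 and Kcne2, with no overlap between neighbors down to Trpv4 and overlap from there on. In PQQ-H, Aqp1 came before Kcnj13, and Trpv4 overlapped with Clic6 but not with Aqp1. Slc4a2, at 5.23 ± 0.876 FPKM in the 5 PQQ-L libraries and 4.43 ± 0.992 in the 4 PQQ-H libraries (SD), was thus above Clic6, at 1.97 ± 0.942 and 1.06 ± 0.772 FPKM, while in CON Clic6 had the higher mean (19.1 ± 8.82 against 13.2 ± 3.36, SD, n = 3).

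The CON libraries were spread in the same order for 8 of the 9 genes, with CON 2 lowest, CON 1 between and CON 3 highest. Only Atp1b1 had another order. To put the genes on one scale, the FPKM above the PQQ-H mean was expressed as a percent of that in CON 3. CON 1 then reached between 53.3% (Slc12a2) and 74.4% (Aqp1), and CON 2 between 21.7% (Kcne2) and 44.3% (Slc4a2). Ttr, the transthyretin transcript of choroid plexus epithelium, gave 67.9% in CON 1 and 27.9% in CON 2, and Folr1, its folate receptor, gave 57.9% and 25.8%. Both were picked from a list of 20 such markers, of which 18 were lower in every PQQ-H library than in CON. Kl and Prlr were not, with Kl at 0.750 to 27.45 FPKM in CON and 1.34 to 13.95 in PQQ-H. The plot of the shares in CON 1 and CON 2 shows CON 2 below CON 1 for every gene drawn.

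**Figure D3:**
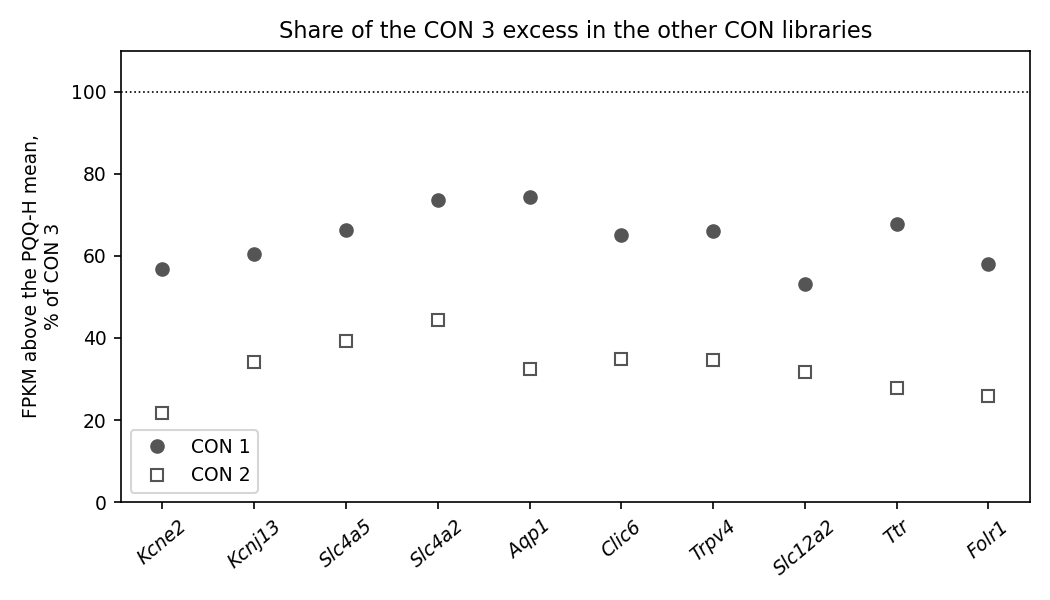
FPKM above the PQQ-H mean in CON 1 (filled circles) and CON 2 (open squares) as a percent of that in CON 3 (y axis, dotted line at 100) for 8 of the 9 genes and for Ttr and Folr1 (x axis). Ttr and Folr1 were picked from the list of 20 choroid plexus markers. CON 1 lies between 53.3% and 74.4% and CON 2 between 21.7% and 44.3%, and CON 2 is below CON 1 at every gene.

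Markers of choroid plexus epithelium moved together with the 7 genes. A list of 20 such markers, chosen with earlier results of these data known, held none of the 9 genes. Its summed FPKM was 1842 to 6079 in CON, 122 to 224 in PQQ-L and 93.5 to 112 in PQQ-H. In CON most of the sum was Ttr (1499 to 5315 FPKM), and in PQQ-H the largest part was Enpp2 (45.6 to 71.5). Of the 20, 17 were lower in every PQQ-L library than in CON (7.66% of all genes tested) and 18 in every PQQ-H library (5.72%). Kl and Prlr overlapped with CON at both doses, and Igf2 in PQQ-L. None of the 20 was at 0 in all libraries of a group. The sum was lowest of the CON libraries in CON 2 and highest in CON 3, the order seen for the genes themselves. Markers of ependyma, the ciliated lining of the ventricles, summed to 43.9 to 62.3 FPKM in CON, 21.3 to 42.8 in PQQ-L and 9.87 to 30.5 in PQQ-H (8 markers). Of these 8, 4 were lower in every PQQ-L library than in CON and 6 in every PQQ-H library. Markers of meningeal fibroblasts summed to 51.8 to 81.7 FPKM in CON, 22.3 to 55.1 in PQQ-L and 15.4 to 20.5 in PQQ-H (8 markers). The largest part in CON was Igfbp2 (31.5 to 63.7 FPKM). Col1a1, Col1a2 and Igfbp2, 3 of these 8, were lower than in CON in every PQQ-L and every PQQ-H library (7.66% and 5.72% of all genes tested). Dcn, Lum, Ogn, Slc6a13 and Slc22a6 overlapped with CON at both doses. The part of such tissue in the differences of the 9 genes was not tested. Astrocyte markers overlapped between the groups (890 to 976, 867 to 1000 and 828 to 1114 FPKM), as did those of brain endothelium (104 to 154, 105 to 122 and 98.0 to 166), microglia (198 to 328, 201 to 246 and 235 to 357) and red blood cells (107 to 313, 55.1 to 251 and 122 to 600).

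The label of hippocampus was not borne out equally by all libraries. The summed FPKM of 8 striatal neuron markers was 2107 in CON 1, 868 in CON 3, 1574 in PQQ-H 1 and 763 in PQQ-H 2, but between 21.2 and 87.1 in the other 8 libraries, which include all of PQQ-L. In the same 4 libraries the 8 hippocampal neuron markers summed to between 57.6 and 116 FPKM, against 155 to 429 in the others. Atp1b1 followed this division, at 498 to 640 FPKM in the 4 libraries and 829 to 961 in the other 8. Markers of neurons in general were also lower in the 4 libraries (1681 to 1765 against 1966 to 2096 FPKM), while those of oligodendrocytes (1766 to 2780 against 959 to 1683), microglia (279.9 to 357 against 198 to 246) and brain endothelium (126 to 166 against 98.0 to 122) were higher. Their part in the levels of Atp1b1 was not tested.

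The levels of the other genes overlapped across this division when all groups were joined. Within groups some followed it, since CON 1 and CON 3 were above CON 2 for all of them, and PQQ-H 1 and PQQ-H 2 were above PQQ-H 3 and PQQ-H 4 for Slc4a2, Clic6, Trpv4 and Slc12a2. For the 7 genes CON was above PQQ on both sides of it, which their lack of overlap over all libraries fixes in advance. Among the 8 libraries with low striatal markers, the single CON library (CON 2) was above all 7 PQQ libraries for Kcne2 (3.75 against 0 to 0.379 FPKM), Slc4a2 (9.77 against 3.64 to 6.23), Clic6 (10.5 against 0.352 to 3.07) and the other 4 of the 7 genes. Slc12a2 in CON 2 (17.3 FPKM) lay within the 7 PQQ libraries (11.4 to 19.3). Among the 4 libraries with high striatal markers, CON 1 and CON 3 were above PQQ-H 1 and PQQ-H 2 for 8 of the 9 genes, with Kcne2 at 9.82 and 17.2 against 0.0161 and 0.0174 FPKM and Slc12a2 at 20.0 and 26.0 against 15.6 and 13.6. Atp1b1 overlapped there, at 498 and 640 against 577 and 636 FPKM.

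**Figure D4:**
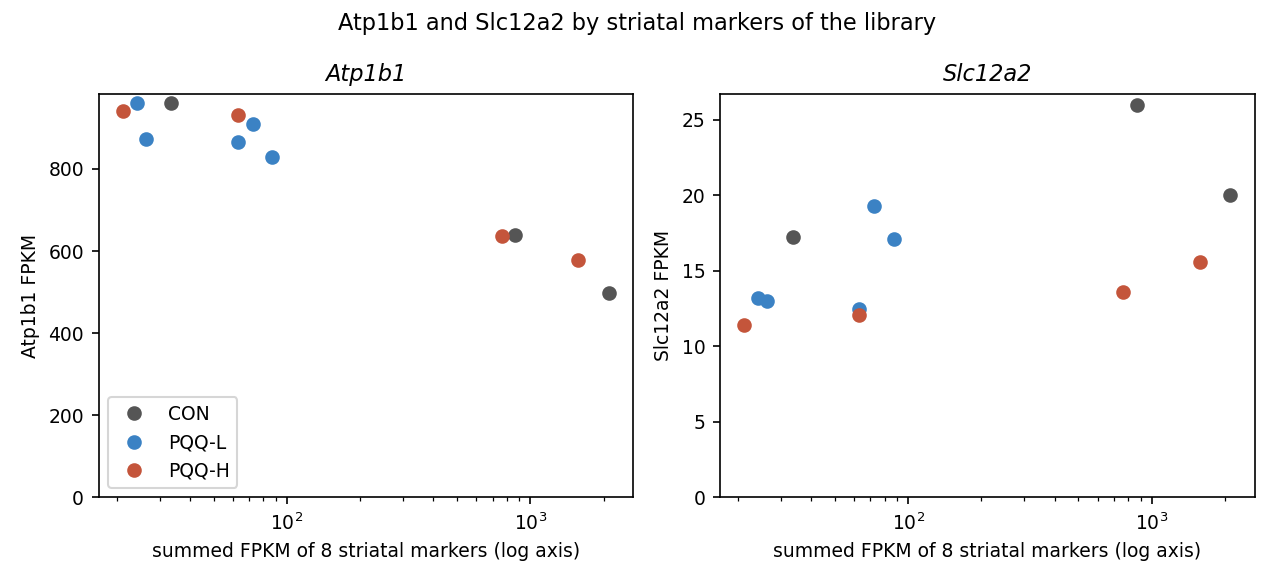
FPKM of Atp1b1 (left) and Slc12a2 (right) on the y axes, from 0, against the summed FPKM of 8 striatal neuron markers in the same library (x axis, log scale), with 1 point per library colored by group. Atp1b1 is at 829 to 961 in the 8 libraries under 100 and at 498 to 640 in the 4 libraries over 700, and Slc12a2 overlaps between them, although within CON and within PQQ-H its points are higher on the right.

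The names of 7 libraries start with L and those of 5 with R, which no source used here explains. CON 1 is the only CON library with R. Within each letter the CON libraries were above the PQQ libraries for the 7 genes, as they were over all libraries, so the letters add no check. No pair of libraries within a group agreed within sampling noise.

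By likeness over the 12 libraries (Pearson correlation of log2(FPKM + 0.1), a description in which the gap between CON and PQQ sets most of the value), the genes nearest to Kcne2 were Cldn3 (r = 0.998), Cldn2 (0.987) and Pcolce (0.978). Claudins 2 and 3 are tight junction proteins, and Cldn2 is a marker of choroid plexus epithelium. Kcnj13 was nearest to F5 (0.986), Col8a1 (0.981) and Slc31a1 (0.973), and Slc4a5 to Cldn2 (0.995), Col8a1 (0.987) and F5 (0.981). F5 encodes coagulation factor V and Slc31a1 a copper importer. Slc4a2 was nearest to Enpp2 (0.978), Ace (0.976) and Prkcq (0.973), Aqp1 to Enpp2 (0.986), Cldn2 (0.986) and Sult1c2 (0.985), and Trpv4 to Enpp2 (0.976), Sult1c2 (0.975) and Col9a3 (0.974). Enpp2 encodes autotaxin, an enzyme that makes lysophosphatidic acid, and stood at 236 to 486 FPKM in CON, 51.1 to 98.7 in PQQ-L and 45.6 to 71.5 in PQQ-H. Clic6 was nearest to Pltp (0.979), Ltbp3 (0.978) and Mdfic (0.978).

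Slc12a2 and Atp1b1 had other neighbors. The nearest to Slc12a2 were Abhd14b (0.962), Antxr1 (0.953) and Gas6 (0.945), and the nearest to Atp1b1 were Tmem150c, Dync1i1 and Crim1 (0.993 each). Crim1 ranged from 3.99 to 24.2 FPKM within CON and from 6.28 to 21.0 within PQQ-H. Of the 20 different genes named by this rule, 3 are on the choroid plexus list. Among themselves, the 7 genes without Slc12a2 and Atp1b1 formed 21 pairs with r from 0.912 to 0.989.

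Kcne2 and Clic6 both lie on chromosome 16, with 11 annotated genes between them, of which 10 are in the table and 2 coding genes were tested. These were Smim11, at 14.9 to 20.4 FPKM in CON, 13.8 to 15.7 in PQQ-L and 14.0 to 19.0 in PQQ-H, and Rcan1, an inhibitor of calcineurin, at 22.0 to 27.5, 20.8 to 27.3 and 23.3 to 27.7 FPKM. Neither passed the test (limma, adjusted p = 0.225 and 0.741 for Smim11 and 0.535 and 0.892 for Rcan1 in PQQ-L and PQQ-H). Kcne1, of the same family as Kcne2 and also between them, reached at most 0.0175 FPKM in any library.

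The same families were then followed in 126 further transport genes in 8 lists, of which 123 were in the table and 90 were tested. None of the 90 passed both thresholds with limma in either comparison with CON. At an unadjusted p below 0.05 in PQQ-L vs. CON, 10 of the 90 had lower and 13 had higher levels, where 11.6% and 8.92% of all genes did. In PQQ-H vs. CON, 12 of the 90 had lower and 1 had a higher level, where 7.88% and 1.85% of all genes did. Voom on recovered reads gave 1 call in PQQ-L (Clic3, log2FC -3.78, adjusted p = 0.0106) and 0 in PQQ-H. The median log2FC of the 90 was 0.06 for PQQ-L and -0.06 for PQQ-H, near the -0.03 of all genes. Without CON 2, which left CON 1 and CON 3, 17 of them passed in PQQ-L, 7 lower and 10 higher, where 6.28% of all genes passed (431 lower and 435 higher). In PQQ-H, 2 of them (Car14 and Fxyd1, both lower) and 138 of all genes passed without CON 2. The plot of the families sets the 9 genes beside their relatives.

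**Figure D5:**
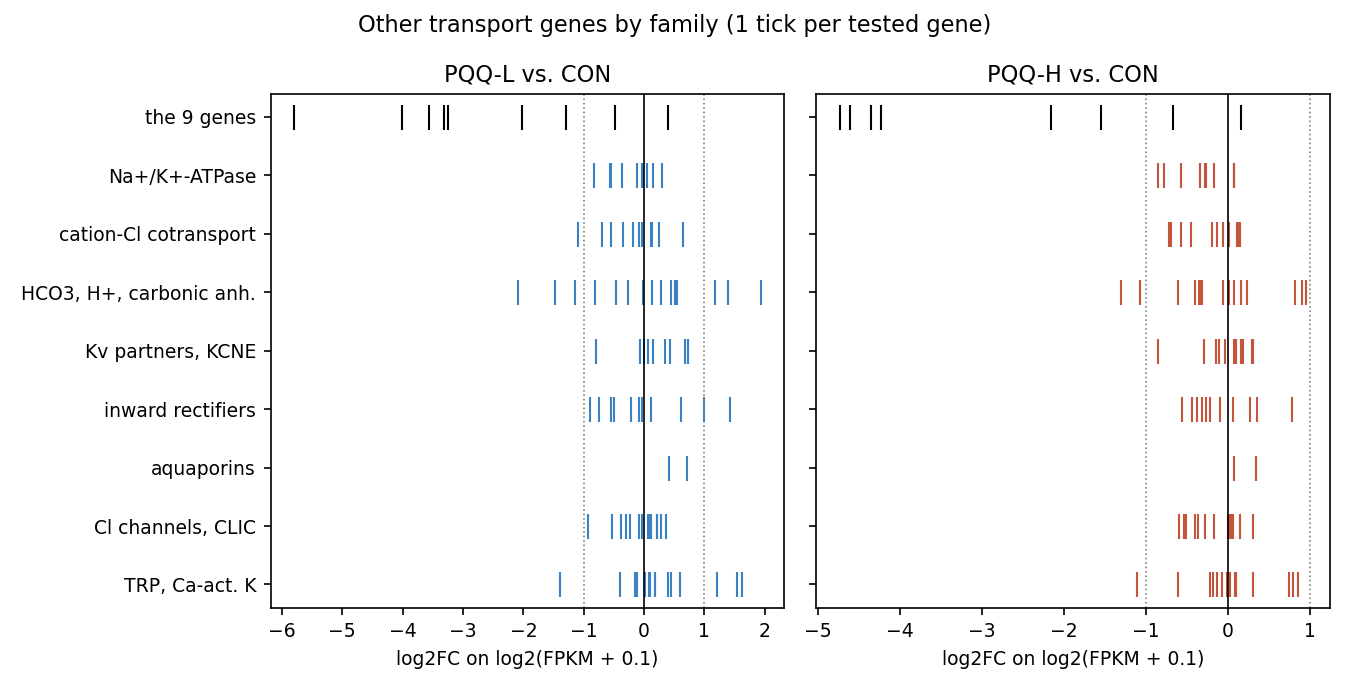
Log2FC on the log2(FPKM + 0.1) scale (x axis, with a different range in each panel) of the 9 genes and of the tested genes of 8 transport families (y axis) in PQQ-L vs. CON (left) and PQQ-H vs. CON (right), with 1 tick per gene and dotted lines at the fold threshold. Kcne2 has no tick on the right, where only its bound is known, and none of the 90 family genes beyond the dotted lines passed the test.

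Among the cation-chloride cotransporters and their kinases (11 tested), 2 genes had an adjusted p below 0.05 at a fold short of the threshold, and 0.587% of all genes tested did so downward in PQQ-L and 1.08% in PQQ-H, counting those past the fold too. Slc12a4, the potassium chloride cotransporter KCC1, was at 7.68, 6.05 and 9.32 FPKM in CON 1 to CON 3, at 4.35 to 5.18 in PQQ-L and at 4.26 to 4.89 in PQQ-H. Its log2FC was -0.70 in PQQ-L (SE 0.123, limma adjusted p = 0.0281) and -0.70 in PQQ-H (SE 0.129, adjusted p = 0.0268), lower in all libraries. Stk39 encodes SPAK, the kinase that activates NKCC1, the product of Slc12a2. Stk39 was at 23.2, 20.2 and 22.9 FPKM in CON 1 to CON 3, at 14.1 to 16.5 in PQQ-L and at 13.6 to 17.8 in PQQ-H. Its log2FC was -0.55 in PQQ-L (SE 0.102, limma adjusted p = 0.0390) and -0.57 in PQQ-H (SE 0.107, adjusted p = 0.0298), also lower in all libraries. These 2 genes were singled out after their values were seen. Of the genes named by size, Wnk4, a kinase upstream of SPAK, had a log2FC of -1.10 (adjusted p = 0.261) in PQQ-L, and Slc12a7 (KCC4) one of -0.72 (adjusted p = 0.429) in PQQ-H.

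Of the potassium channel partners and KCNE subunits (11 tested), Kcnh2, an ERG potassium channel that KCNE2 can join, had a log2FC of -0.80 in PQQ-L (limma adjusted p = 0.0604) and -0.85 in PQQ-H (SE 0.172, adjusted p = 0.0418). It was at 11.4, 7.82 and 6.70 FPKM in CON 1 to CON 3, at 4.06 to 5.66 in PQQ-L and at 4.33 to 5.10 in PQQ-H, with no overlap between CON and either dose. Kcnq1, the partner of KCNE2 in several epithelia, was below the minimum for testing, at a mean of 0.0842 FPKM and at most 0.143. Kcne1l, a further subunit of the family, had a log2FC of -0.79 (adjusted p = 0.247) in PQQ-L. Among the inward rectifiers (11 tested), the largest log2FC were those of Kcnj6 and Kcnj3, subunits of the G protein-gated channels of neurons, at 1.42 (adjusted p = 0.241) and 0.996 (adjusted p = 0.240) in PQQ-L.

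Of the other Na+/K+-ATPase subunits and FXYD regulators (10 tested), 0 had an adjusted p below 0.05. Fxyd1, phospholemman, a regulator of the pump, was at 11.4, 8.06 and 14.7 FPKM in CON 1 to CON 3, at 5.53 to 7.23 in PQQ-L and at 5.17 to 7.66 in PQQ-H. CON did not overlap with either dose, the CON libraries had the order of the 8 genes above, and the adjusted p was 0.0799 in PQQ-L (log2FC -0.83) and 0.0689 in PQQ-H (log2FC -0.85) with limma. Fxyd6 had a log2FC of -0.78 (adjusted p = 0.346) in PQQ-H.

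In the family of bicarbonate and proton transport with carbonic anhydrases (15 tested), 2 genes were lower and 4 higher at an unadjusted p below 0.05 in PQQ-L, and 1 was lower in PQQ-H. The largest log2FC were -2.09 for Slc4a11 (limma adjusted p = 0.252) and 1.93 for Slc26a4, the anion exchanger pendrin (adjusted p = 0.256), both in PQQ-L. Slc4a11 ranged from 0.120 to 2.82 FPKM within CON alone. Of 11 other aquaporins, 2 were tested. Aqp4, the water channel of astrocyte endfeet, was at 8.90 to 19.4 FPKM in CON, 14.6 to 21.4 in PQQ-L and 10.7 to 15.7 in PQQ-H, with a log2FC of 0.41 (limma adjusted p = 0.276) and 0.08 (adjusted p = 0.931). Aqp11 had a log2FC of 0.71 (adjusted p = 0.253) and 0.34 (adjusted p = 0.813). The remaining 9 aquaporins had a mean of at most 0.214 FPKM.

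Among the chloride channels and CLIC proteins (15 tested), 0 passed. Clic1 was at 16.7, 7.83 and 16.2 FPKM in CON 1 to CON 3, at 6.19 to 7.36 in PQQ-L and at 6.08 to 14.8 in PQQ-H, with a log2FC of -0.93 (limma adjusted p = 0.187) and -0.53 (adjusted p = 0.613). Clcn5, an endosomal chloride/proton exchanger, had a log2FC of -0.59 (adjusted p = 0.367) in PQQ-H. Clic3 was below the minimum for testing, at a mean of 0.269 FPKM, and without that minimum its log2FC was -2.43 (adjusted p = 0.00668) in PQQ-L and -1.87 (adjusted p = 0.0361) in PQQ-H. Of the TRP and calcium-activated potassium channels (15 tested), Trpc4 and Trpc5 had the largest log2FC, at 1.62 (limma adjusted p = 0.247) and 1.54 (adjusted p = 0.240) in PQQ-L, and ranged from 0.287 to 4.89 and from 0.378 to 3.57 FPKM within CON.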

How the data were processed

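Total RNA from hippocampus was extracted by the authors with TRIzol, made into libraries with the VAHTS Universal V10 kit and sequenced on a NovaSeq, and the reads were filtered with fastp, mapped with HISAT2 and counted with HTSeq-count. The authors deposited FPKM for 27833 genes, already divided by gene length and library total. The submitters' processing notes name mm39, while program versions, annotation and strandedness are not given in the sources used here. The authors' own test was DESeq2 on counts, which were not used here.

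Here limma 3.58.1 (R 4.3.3, moderated test with trend) was fitted to log2(FPKM + 0.1) in a single model of the 12 libraries. The 13796 genes whose mean FPKM reached 0.5 were tested. Calls needed |log2FC| above 1 together with p below 0.05 after Benjamini-Hochberg adjustment. This scale understates differences of genes with a low FPKM. Python 3.11.15 did the rest. Since the FPKM of a gene are whole multiples of the value of 1 read, reads were recovered for 25563 of 25563 genes with at least 2 libraries above 0 (100%, tolerance 0.02 reads), and totals were 29654553 to 38179496 per library. Read numbers give counting precision only. On data simulated with normal noise and a log2 change of 3, limma called 197 of 200 changed genes and 5 others in PQQ-L vs. CON (13796 genes). That simulation had no reads and no floor, so it does not cover smaller changes or genes near 0. On simulated reads, the recovery returned 99.93% of 2930 genes. Over 19 pairs within groups, chi-square divided by its degrees of freedom was at least 18.76, so no library was a duplicate.

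The 9 genes, the 8 transport lists and the 11 cell type lists were chosen with earlier results of these data known. Of the transport lists, the text names every tested gene with an adjusted p below 0.05 in either comparison with CON in the main fit. It also names the 2 tested genes of each list with the largest |log2FC| in either comparison with CON. Genes called only under an alternative are named in part. For each of the 9 genes, the 3 tested genes of highest Pearson correlation are named. Besides leaving out each of 12 libraries, 13 alternatives were planned: pseudocounts of 1 and 0.01, no minimum, a minimum mean FPKM of 1, median-of-ratios scaling, TPM, only the 2 groups compared, no trend, robust fitting, array quality weights, the letter of the library name, the replicate block and voom on recovered reads (mean of at least 10). A further 2, subsets by striatal markers, were chosen after seeing the data. Promoters came from RefSeq (GRCm38.p6).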

Additional observations from a re-analysis of the deposited data

Results flagged for a closer look

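Kcne2 in PQQ-L had 1 library apart from the others, PQQ-L 3 at 0.379 FPKM, whose gap to the nearest library was 0.749 of the group's range on the log2(FPKM + 0.1) scale, above Dixon's critical value for 5 libraries. Kcne2 in PQQ-H also had 1 library apart, PQQ-H 4 at 0 FPKM, with a gap of 0.925 of the range, above the critical value for 4 libraries, and there the libraries differ by a single read. Such a gap was looked for in 18 combinations of gene and group and found in these 2, and by chance about 1 in 20 groups shows one.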

How the results depend on the processing

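In PQQ-L vs. CON, 65 genes were called, and 112 with no minimum, 42 with a mean FPKM of at least 1, 17 with array quality weights, 23 with the replicate block, 123 with voom and 1 in the 8 libraries with low striatal markers, while leaving out 1 library gave 23 (without CON 1) to 866 (without CON 2). Of the 9 genes, 7 were called, and 2 with array quality weights, 3 with the replicate block and 0 in the 8 libraries, with 3 (without CON 1 or CON 3) to 7 on leaving out 1 library. Their median log2FC of -3.24 was -1.54 at a pseudocount of 1, -2.50 in the 8 libraries and -3.62 to -2.91 on leaving out 1 library. Of the other transport genes, 0 were called, and 1 with no minimum (Clic3), 1 with voom and 0 to 17 on leaving out 1 library.

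In PQQ-H vs. CON, 113 genes were called, and 170 with no minimum, 68 with a mean FPKM of at least 1, 44 with only the 2 groups, 31 with array quality weights, 48 with the replicate block, 6 in the 8 libraries and 35 in the 4 libraries with high striatal markers, and 62 (without CON 3) to 153 on leaving out 1 library. Of the 9 genes, 7 were called, and 4 with only the 2 groups (Slc4a2, Clic6 and Trpv4 lost), 3 with array quality weights, 5 in the 4 libraries and 0 in the 8 libraries, and 7 whichever library was left out. For both doses, these counts of the 9 describe the choice of genes and test nothing, and several of the 9 entered the fit through CON. The median log2FC of the 9 in PQQ-H, -4.23, was -1.68 at a pseudocount of 1. Of the other transport genes, 0 were called, and 1 with no minimum and 0 to 2 on leaving out 1 library. In the 8 libraries CON is 1 library, assumed to vary like the others, and so few genes passed there that the lost calls say nothing about the 9, and both subsets were chosen after seeing the data.

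The log2FC of Atp1b1 turned to -0.12 for PQQ-L and -0.036 for PQQ-H in the 8 libraries, and ran from -0.057 (without CON 1) to 0.417 for PQQ-H on leaving out 1 library. Between the doses, that of Atp1b1 turned to 0.079 in the 8 libraries, and that of Trpv4 ran from -0.277 to 0.024 (without PQQ-L 1). Of 705 values of single genes under an alternative, 655 moved by less than their spread, 45 moved by more and 5 turned. Many could not move, since a library of the group not compared, the minimum, the trend and robust fitting do not enter a log2FC. Where not shown by the setting itself, the cause was not tested. Whether replicate numbers pair the libraries could not be decided. Correlations of the deviations from the group mean in same-numbered libraries ran from -0.619 (CON 2 and PQQ-H 2) to 0.717 (CON 1 and PQQ-H 1). The pair at 0.717 had high striatal markers in both libraries, and the pair at -0.619 in PQQ-H 2 only. With at most 5 libraries a group and under 10 reads for several PQQ values, differences between the doses of Kcne2, Slc4a5 and Aqp1 were not resolved at this depth.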
